A study of Mus musculus with 9 samples.

Results

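The genes described here encode the constitutive subunits of the proteasome, followed in injured tibialis anterior muscle of mice. Members were the protein-coding rows whose symbol is Psma, Psmb, Psmc or Psmd and a number, without the immunoproteasome subunits Psmb8, Psmb9 and Psmb10. The rule used names and no measured value, though the members were chosen with earlier results of these data known. It gave 36 of the 54532 genes in the table, 16 of the 20S core and 20 of the 19S cap. RNA from tibialis anterior, a muscle of the lower hind limb, was sequenced after injury in 9 libraries. There were 3 libraries from young wild-type mice aged 4 to 6 months, 3 from old wild-type mice aged 24 months and 3 from old mice with both copies of the gene for P311 deleted (P311-/-), called old with no age in months. No agent other than the injury is named, and the labels state neither its kind nor the time from injury to collection. They also do not say whether the replicates of a group are separate animals, so p-values here reflect how far these libraries differ, which may be partly technical. In which cells the deletion acts is likewise not stated.

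The proteasome breaks down proteins that carry ubiquitin chains. Its core is a barrel of stacked rings: outer rings of alpha subunits (Psma genes) gate the entrance, and inner rings of beta subunits (Psmb genes) hold the proteolytic sites. The cap binds the ubiquitin chain, removes it, unfolds the protein with a ring of ATPases (Psmc genes) and feeds it into the barrel. In skeletal muscle the ubiquitin-proteasome pathway degrades myofibrillar proteins, and its genes are known to rise in several kinds of muscle wasting.

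Recovered reads ranged from 14222204 to 31910890 per library, and each of the 34 members tested had between 181 (Psmd10) and 9763 (Psmd2) reads in a library. Values are FPKM, which is reads per kilobase of gene length scaled to a library size. Levels can thus be compared between genes as far as the annotated lengths hold. The library size in the authors' values was not the number of recovered reads. It was 28517051 against 25652596 reads in P311-/- replicate 1, and 17876808 against 20475248 in replicate 2. Nrep, the gene for P311, stood at 63.9 to 86.3 FPKM in young wild type and 71.4 to 83.1 in old wild type, against 14.8, 6.37 and 9.72 in P311-/- replicates 1 to 3, so reads on it were fewer in every P311-/- library but not 0. All 10 muscle fibre markers were above 0 in every library, and their summed level was 35080 to 36770 FPKM in the young, 36290 to 44960 in the old wild-type and 37050 to 54190 in the P311-/- libraries. The 9 macrophage markers were also above 0 throughout, at a sum of 1460 to 2273, 1189 to 1737 and 679.6 to 1581 in the same order. Reads from mitochondrial genes made up 8.79% to 10.7%, 13.2% to 17.6% and 9.47% to 14.1%. Markers of 13 cell types were summed, and all were above 0 in every library except Ly6g (neutrophils), at 0 in all 9, and Retnlg (neutrophils), Cd79a and Ms4a1 (B cells), at 0 in some. These are bulk samples, so fewer cells of a type and less RNA per cell cannot be told apart. P311-/- replicate 1 stood apart from the other 2 libraries of its group, with fibre markers at 37050 FPKM against 54190 and 50900 and macrophage markers at 1581 against 679.6 and 929.8.

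The bases upstream of 7 members are shown first, because several regulators of proteasome genes act through short elements there. They are printed for the 5 members that hold TGACNNNGC, the core of the antioxidant response element bound by NFE2L1 and NFE2L2, and for 2 without it, Psma1 and Psmd2, whose levels moved differently. Capitals mark matches to TGACNNNGC, to CCAAT (the box bound by NF-Y) or to GGCGGAA (an ETS-like motif), searched on both strands; matches to different motifs were counted separately. Sequences are from RefSeq on GRCm38.p6, read 5′ to 3′ on the gene's strand, and cover the bases before the start that lie in no annotated exon. They are at chr14:54618023-54618245, minus strand, chr11:70525107-70525356, plus strand, chr14:45329574-45329787, plus strand, chr11:107479278-107479483, plus strand, chr5:123227940-123228189, plus strand, chr7:114276119-114276366, minus strand and chr16:20651402-20651651, plus strand.
Psmb5: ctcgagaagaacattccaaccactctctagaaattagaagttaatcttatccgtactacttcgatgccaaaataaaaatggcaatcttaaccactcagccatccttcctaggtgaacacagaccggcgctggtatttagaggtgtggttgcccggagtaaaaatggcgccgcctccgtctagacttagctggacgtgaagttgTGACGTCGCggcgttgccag
Psmb6: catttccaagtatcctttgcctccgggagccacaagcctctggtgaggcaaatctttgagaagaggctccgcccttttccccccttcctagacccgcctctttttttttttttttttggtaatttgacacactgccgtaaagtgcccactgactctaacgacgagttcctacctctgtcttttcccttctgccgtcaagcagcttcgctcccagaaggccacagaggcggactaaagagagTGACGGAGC
Psmc6: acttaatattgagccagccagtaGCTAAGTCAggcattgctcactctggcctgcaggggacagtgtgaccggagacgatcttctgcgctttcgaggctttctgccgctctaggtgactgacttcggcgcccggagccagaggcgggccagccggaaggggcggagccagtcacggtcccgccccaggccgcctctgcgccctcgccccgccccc
Psmd12: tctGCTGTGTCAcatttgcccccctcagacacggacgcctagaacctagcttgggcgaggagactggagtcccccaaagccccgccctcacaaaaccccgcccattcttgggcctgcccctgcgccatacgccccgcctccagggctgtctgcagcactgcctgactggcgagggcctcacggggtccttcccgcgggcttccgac
Psmd9: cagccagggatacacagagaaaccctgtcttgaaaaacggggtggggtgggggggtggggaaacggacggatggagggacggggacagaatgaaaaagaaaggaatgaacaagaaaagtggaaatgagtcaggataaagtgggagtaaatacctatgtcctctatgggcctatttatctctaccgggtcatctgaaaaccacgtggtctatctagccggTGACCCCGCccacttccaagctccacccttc
Psma1: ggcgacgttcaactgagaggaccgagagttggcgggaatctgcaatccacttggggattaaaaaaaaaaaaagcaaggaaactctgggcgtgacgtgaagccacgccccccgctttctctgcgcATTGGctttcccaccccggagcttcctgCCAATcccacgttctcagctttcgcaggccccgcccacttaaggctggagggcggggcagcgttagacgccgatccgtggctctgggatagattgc
Psmd2: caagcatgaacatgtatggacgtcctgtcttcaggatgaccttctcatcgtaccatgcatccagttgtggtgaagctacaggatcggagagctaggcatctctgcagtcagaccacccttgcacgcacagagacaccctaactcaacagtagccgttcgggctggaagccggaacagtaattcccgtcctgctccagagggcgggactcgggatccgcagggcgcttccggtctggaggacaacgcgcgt
In Psmb5, Psmb6 and Psmd9 the match is in the forward direction and near the start, while in Psmc6 and Psmd12 it is the reverse complement at the far end of the window. The RefSeq start of Psmd9 lies inside the longer gene annotated in GENCODE M21.

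Of the 36 members, 29 had an entry in the RefSeq promoter table, each 300 bases long. TGACNNNGC was found in 5 of them, or 17.2%, against 13.99% of all 27025 genes in that table and 17.0% of the 10213 that were tested here. CCAAT was found in 12 members, or 41.4%, against 41.1% of all genes and 42.3% of tested genes. GGCGGAA was found in 3 members (Psma7, Psmd1 and Psmd14), or 10.3%, against 5.67% and 10.9%. All 3 shares among the members were thus close to those among tested genes. A match describes letters only. The 7 members without an entry were Psma8, Psmb1, Psmb2, Psmb7, Psmc3, Psmd3 and Psmd7.

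Levels differed widely among the members. Averaged over all 9 libraries, the highest core member was Psmb5, the catalytic subunit with chymotrypsin-like activity, at 118.7 FPKM. The lowest tested core member was Psma2, an outer ring subunit, at 25.4. In the cap, Psmc5, an ATPase, was highest at 88.3, and Psmd9, a chaperone that helps to assemble the ATPase ring and is not part of the finished cap, was lowest at 2.95. The other cap assembly chaperones, Psmd5 and Psmd10, stood at 4.13 and 8.59. Psmd9 had more reads than Psmd10 in every library, such as 378 against 211 in young wild type replicate 1. Its gene length was 7248 against 1469 bases, so their order in FPKM depends on the annotated lengths. Psma8, the alpha subunit of testis, was at 0.0598 to 0.272 FPKM in the wild-type libraries and 0 to 0.0330 in P311-/-, which is at most 10 reads. Psmb11, the beta subunit of thymus cortex, did not exceed 0.0293 FPKM. These 2 members were too low to test, and the other 34 passed the filter on low values.

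Many proteasome mRNAs were higher in old than in young wild-type muscle, more of them in the core than in the cap. Of the 34 members tested, 14 were higher (limma, adjusted p under 0.05) and 0 lower, against a background of 3.39% of all 14233 genes tested called higher and 2.01% called lower. All 34 fold changes were above 0, which held for 50.4% of all genes. The 14 were 10 of 14 core members (Psma1, Psma2, Psma4, Psma5, Psma6, Psmb1, Psmb3, Psmb4, Psmb6, Psmb7) and 4 of 20 cap members (Psmc6, Psmd6, Psmd12, Psmd14). The median log2 fold change was 0.67 over the core and 0.33 over the cap, against 0.0050 over all genes tested. Every core member, and 16 of 20 cap members, had all 3 old libraries above all 3 young libraries, which held for 19% of all genes tested, while 18.1% had the reverse order and no member did. At an unadjusted p under 0.05, 14 core and 8 cap members were higher and 0 lower, against a background of 13.9% higher and 12.4% lower.

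Markers of other cell types moved between the same groups. The summed level of the 7 markers of fibro-adipogenic progenitors, a stromal cell of muscle, was 1511 to 1645 FPKM in the young and 965.5 to 1303 in the old wild-type libraries, with no overlap. Of these 7 markers, 6 had fold changes below 0 for old over young, with a median of -0.46 on the log2 scale, and 1 was called lower (limma). All 9 macrophage markers were below 0, with a median of -0.51; 0 were called and 2 were lower at an unadjusted p under 0.05. Other lists went up: the summed level of the 7 T and NK cell markers was 8.03 to 8.97 FPKM in young and 11.5 to 18.6 in old wild type. Of these 7, 6 were above 0 (median 0.57) and 0 were called. Of the 10 muscle fibre markers, 7 were above 0 and 3 below, and 1 was called lower (limma). The part of these markers in the proteasome values was not tested.

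The adjusted calls were fragile, while the direction was kept for most members. No member passed when young wild-type replicate 1, 2 or 3, or old wild-type replicate 2 or 3, was left out, although 19 to 22 members had an unadjusted p under 0.05 in those fits. Calls were then scarce among all genes too: in the same order, 0.0843%, 0.00703%, 0%, 0% and 0.0211% of genes were called higher. The count of members was 13 without old wild-type replicate 1, with 2.47% of all genes called higher. It was 19 without P311-/- replicate 1 (7.26% of genes) and 9 without P311-/- replicate 3 (2.08%), whose libraries enter this comparison through the shared estimate of spread. Scaling by total reads in place of the authors' library sizes gave 0 members called and 0.674% of genes called higher, with 18 members at an unadjusted p under 0.05. That scaling moved the median of all genes to -0.12 and the share of higher genes among all calls from 62.76% to 27.75%. In each of the 19 alternatives tried, every core member had a fold change above 0. Most of these alternatives could not have given another sign. Every old library lay above every young one for these members. Leaving out a library, or changing the pseudocount, filter or block, thus could not reverse the sign, whereas changing the scaling or removing trends could. In the cap, Psmd3 and Psmd9 were below 0 under total-read scaling and Psmd9 was so without young wild-type replicate 3.

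**Figure D1:**
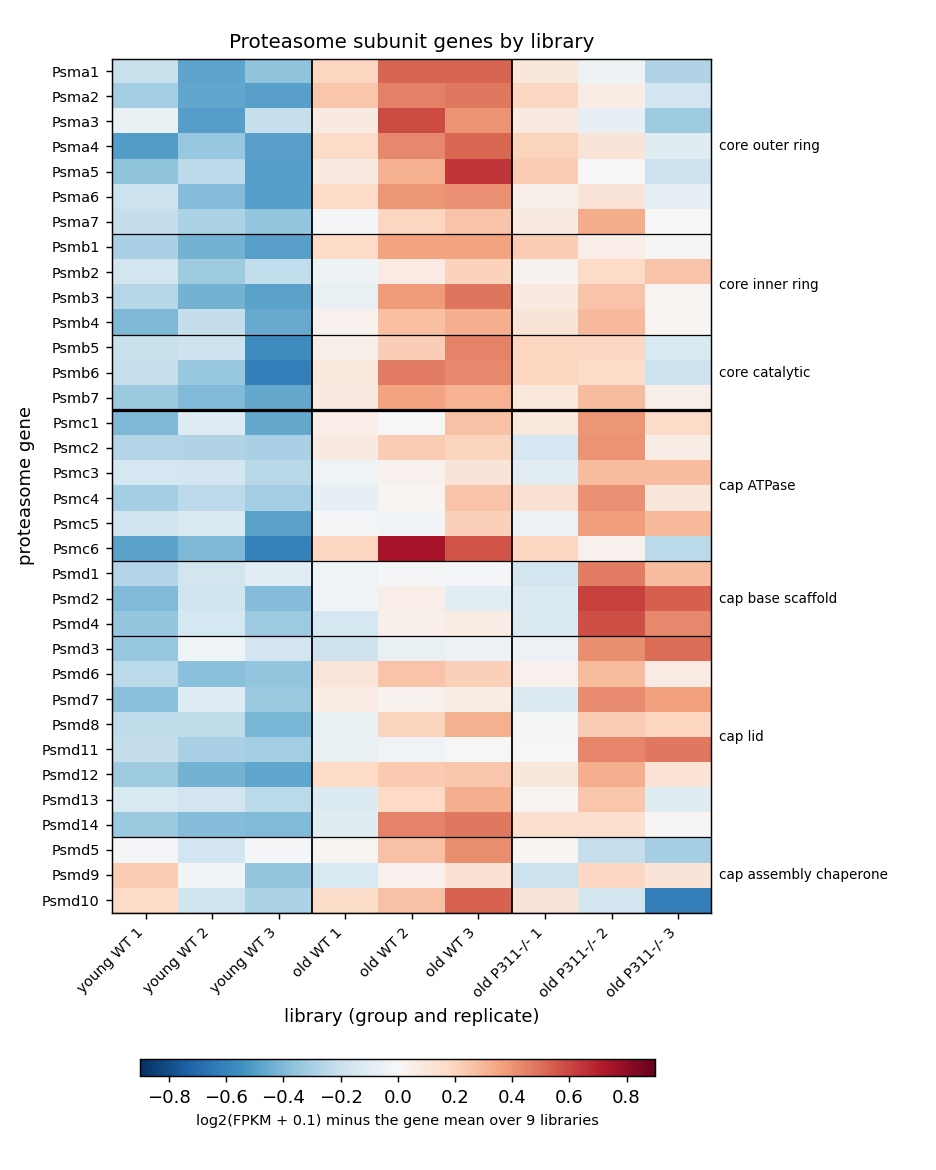
Level of the 34 tested proteasome genes (rows, grouped by class) in the 9 libraries (columns), as log2(FPKM + 0.1) minus the gene's mean over the libraries; red is above and blue below that mean. Core genes are mostly blue in young wild type and red in old wild type, and the cap base scaffold genes are reddest in P311-/- replicates 2 and 3.

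In the outer ring, 5 of 7 alpha subunits were higher in old than in young wild type, and the class median was 0.71 on the log2 scale. Psma2 (chromosome 13, 14613240 to 14674236, GRCm38), an alpha subunit, was at 19.8, 17.8 and 17.6 FPKM in the young libraries, 29.4, 33.7 and 34.3 in the old and 28.1, 25.8 and 21.9 in P311-/-. Each group occupied a range of its own, in the order young, P311-/-, old. Old exceeded young by a log2 fold change of 0.82 (SE 0.13, adjusted p = 0.0301, limma). Psma4 was at 33.8, 37.9 and 34.1 FPKM in young wild type, 54.1, 64.9 and 68.6 in old wild type and 55.3, 52.1 and 44.6 in P311-/-. Here the lowest old library lay below the highest P311-/- library, and both groups lay above the young. The log2 fold change of old over young was 0.82 (SE 0.14, adjusted p = 0.0307, limma). Psma6 was the most abundant alpha subunit, at 63.36 to 77.96 FPKM in young and 101.4 to 118.9 in old wild type. The members of this ring that missed the threshold were Psma3, with a log2 fold change of 0.61 and an adjusted p of 0.0701, and Psma7, with 0.43 and 0.0767 (limma).

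The inner ring without proteolytic sites gave 3 calls among 4 genes, and a class median of 0.61. Psmb1 had 25.99, 23.7 and 22.7 FPKM in young wild type, 36.0, 41.0 and 41.0 in old wild type and 37.3, 33.2 and 32.0 in P311-/-. Its old libraries were all above its young ones, with a log2 fold change of 0.70 (SE 0.12, adjusted p = 0.0307, limma). Psmb3 and Psmb4 had log2 fold changes of 0.65 and 0.57 and also passed. Psmb2 had the smallest change of the core, 0.31 (SE 0.12, adjusted p = 0.137, limma), although its groups did not overlap either.

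The 3 catalytic subunits each cut after a different kind of residue. Psmb5, with chymotrypsin-like activity, had 101.1, 102.2 and 78.4 FPKM in young wild type, 120.9, 135.5 and 158.9 in old wild type and 132.8, 132.2 and 105.8 in P311-/-. The old group was wholly above the young, but its log2 fold change of 0.56 (SE 0.16) had an adjusted p of 0.0732 and did not pass (limma). Psmb6, with caspase-like activity, had 62.9, 57.5 and 47.6 FPKM in young wild type, 77.8, 100.8 and 98.4 in old wild type and 83.2, 81.7 and 63.7 in P311-/-. Old lay above young with no overlap, at a log2 fold change of 0.72 (SE 0.17, adjusted p = 0.0429, limma). Psmb7, with trypsin-like activity, had 30.2, 28.8 and 27.5 FPKM in young wild type, 40.2, 48.9 and 47.2 in old wild type and 40.6, 46.2 and 39.4 in P311-/-. Old over young gave 0.65 on the log2 scale (SE 0.12, adjusted p = 0.0308, limma), and the young libraries were below all the others. An exon of Psmb7 shares 405 bases with Nek6 on the opposite strand, which averaged 2.31 FPKM, and the labels do not settle whether counting used strand. Exons of Psma4, Psma5, Psmb5, Psmc3, Psmd1, Psmd3, Psmd9 and Psmd13 also overlap those of another annotated gene.

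The immunoproteasome subunits that take the places of these 3 were not called. Psmb8, Psmb9 and Psmb10 had log2 fold changes of -0.08, -0.22 and -0.07 for old over young wild type, and 0 of 3 passed (limma, adjusted p of 0.891, 0.649 and 0.837). Psmb5, Psmb6 and Psmb7 had 0.56, 0.72 and 0.65 in that comparison. The divisors of the ratios below thus changed more than Psmb8, Psmb9 and Psmb10 did. Psmb8 was 6.47% to 8.14% of the level of Psmb5 in the young, 3.33% to 6.77% in the old wild-type and 2.38% to 6.22% in the P311-/- libraries. Psmb10 was 42.7% to 53.7% of Psmb7 in the young, 22.4% to 38.3% in the old wild-type and 23.2% to 36.5% in the P311-/- libraries. For Psmb10 the young range lay wholly above both old ranges. Psmb9 was 5.78% to 7.97% of Psmb6 in the young, 2.72% to 5.34% in the old wild-type and 3.11% to 6.10% in the P311-/- libraries, so that young lay above old wild type and overlapped P311-/-. Macrophages are known to hold these subunits in abundance. Their 9 markers were all below 0 for old over young, as given above, and for P311-/- over young. Of 7 T and NK cell markers, 6 were above 0 for old over young wild type (median 0.57). For P311-/- over young, 3 were above 0 and 4 below. The part of any of these cells in the ratios was not tested.

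In the cap, 1 of 6 ATPases passed. Psmc6, one subunit of the ATPase ring, showed the largest change of all members. It was at 32.7, 34.5 and 29.8 FPKM in young wild type, 52.2, 76.3 and 67.7 in old wild type and 52.2, 46.9 and 38.5 in P311-/-. Young libraries were lowest and the 2 higher old libraries stood far above the rest. The log2 fold change of old over young was 0.999 (SE 0.17, adjusted p = 0.0307, limma). The other 5 ATPases did not pass and had log2 fold changes between 0.23 (Psmc3) and 0.45 (Psmc2), though in all 5 the old libraries lay above the young. Psmc5, the most abundant, had 77.0, 79.5 and 62.3 FPKM in young and 86.2, 85.7 and 100.8 in old wild type.

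The lid, which docks beside the ATPase ring and holds the deubiquitinase, gave 3 calls among 8 genes. Psmd12 had 30.5, 28.4 and 27.6 FPKM in young wild type, 43.3, 44.95 and 45.4 in old wild type and 40.9, 47.9 and 41.6 in P311-/-. The replicates of each group were close together, and both old groups were well above the young. Old over young gave a log2 fold change of 0.63 (SE 0.11, adjusted p = 0.0307, limma). Psmd14, the deubiquitinase that cuts the chain off the substrate, had 18.6, 17.9 and 17.9 FPKM in young wild type, 21.9, 32.2 and 32.8 in old wild type and 25.96, 26.1 and 23.7 in P311-/-. Old wild-type replicate 1 was nearer to the young libraries than to the other old ones. The log2 fold change was 0.65 (SE 0.16, adjusted p = 0.0480, limma). Psmd6 had 50.8, 46.2 and 46.9 FPKM in young wild type, 64.6, 71.5 and 69.4 in old wild type and 61.6, 73.1 and 63.1 in P311-/-, and passed at a log2 fold change of 0.51 (SE 0.12, adjusted p = 0.0409, limma). The class called base scaffold here held Psmd1, Psmd2 and Psmd4, the last a ubiquitin receptor rather than a scaffold. None of them passed, and their median was 0.26. None of the assembly chaperones (Psmd5, Psmd9, Psmd10) passed either, with a median of 0.30.

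**Figure D2:**
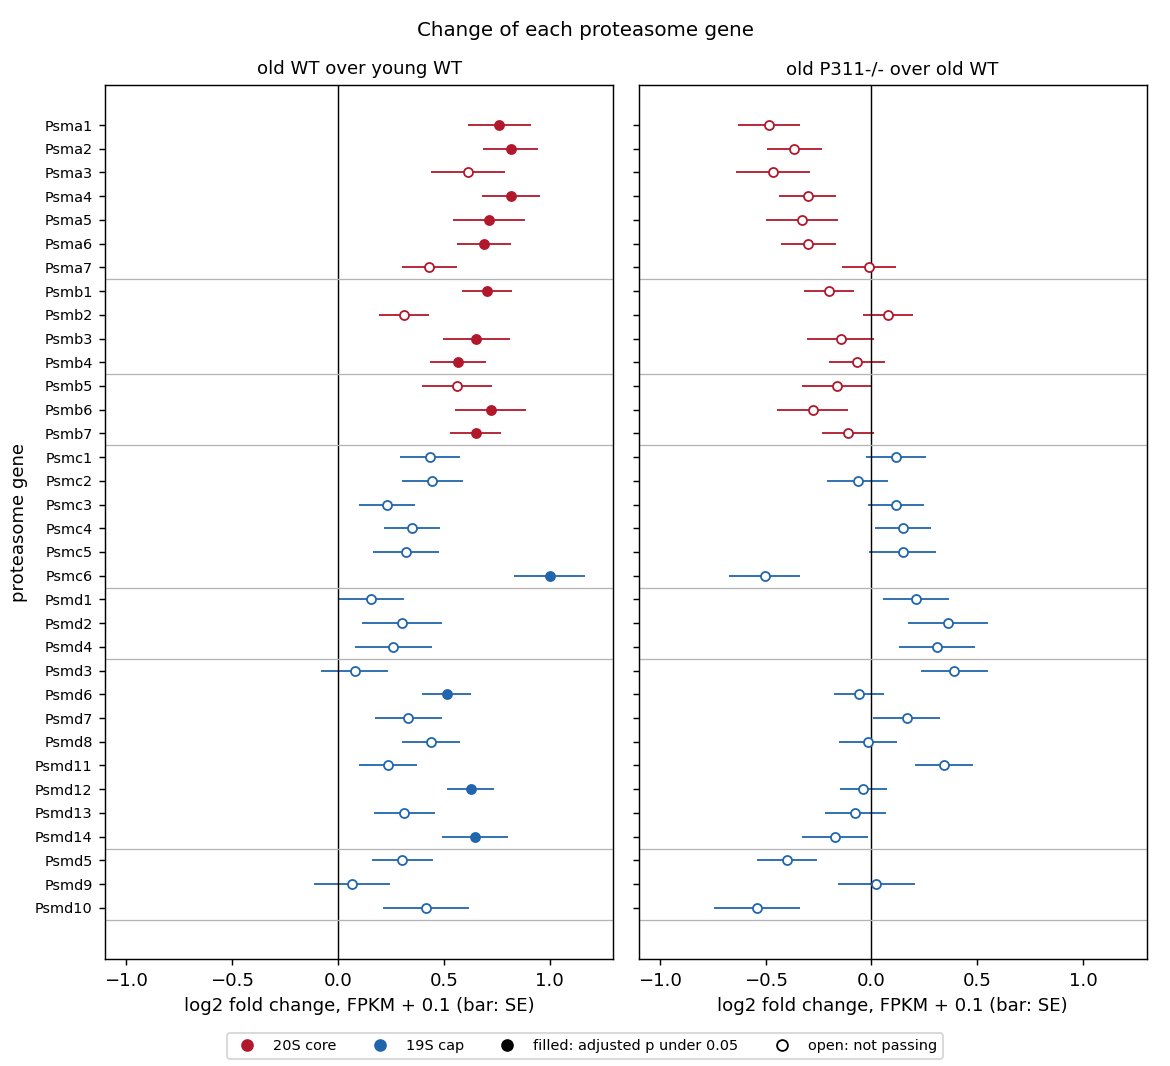
Log2 fold change with its standard error for each tested proteasome gene (rows), old wild type over young wild type on the left and old P311-/- over old wild type on the right; filled points passed an adjusted p of 0.05. All 34 points are above 0 on the left, while on the right none passed, 13 of 14 core genes are below 0 and the cap genes lie on both sides.

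Old P311-/- muscle was next set against old wild-type muscle. The P311-/- mice have no age in months, so the deletion cannot be told apart from a difference in age. No proteasome member passed (limma, adjusted p at least 0.253), and only 0.0141% of all genes tested were called higher and 0.0562% lower. At an unadjusted p under 0.05, 2 members were higher and 7 lower, against a background of 7.59% and 8.54%. Of all genes tested, 49.6% had a fold change above 0. In the core, 13 of 14 were below 0 (12 or 13 in each alternative tried), with a median of -0.24 on the log2 scale. In the cap 11 were above 0 and 9 below, with a median of 0.07, and over all genes tested the median was -0.0039. P311-/- and old wild-type libraries did not overlap for 8 members: P311-/- was lower for Psma1, Psma2, Psma6, Psmc6, Psmd5 and Psmd10, and higher for Psmd3 and Psmd11. The background of genes without overlap was 9.39% lower and 8.64% higher.

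Psma1, an alpha subunit (chromosome 7, 114264606 to 114276118), had the smallest p of all members. It was at 30.2, 24.9 and 27.0 FPKM in young wild type, 39.8, 50.1 and 50.0 in old wild type and 37.4, 33.7 and 28.8 in P311-/-. The P311-/- values lay below all old wild-type values and overlapped the young ones. Its log2 fold change of P311-/- over old wild type was -0.48 (SE 0.15, adjusted p = 0.253, limma). For Psmc6 the difference was -0.51 (SE 0.17, adjusted p = 0.260) and for Psma2 -0.36 (SE 0.13, adjusted p = 0.266, limma), with the values given above. Psma3, an alpha subunit, had 35.8, 51.0 and 44.8 FPKM in old wild type and 35.8, 32.1 and 27.0 in P311-/-, with old wild-type replicate 1 below P311-/- replicate 1, at -0.46 (SE 0.18, adjusted p = 0.271, limma).

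Of the assembly chaperones, Psmd10, also known as gankyrin, had 9.48, 7.37 and 6.86 FPKM in young wild type, 9.38, 10.1 and 12.1 in old wild type and 9.07, 7.46 and 5.43 in P311-/-. P311-/- was below old wild type with no overlap and overlapped young wild type. The log2 fold change of P311-/- over old wild type was -0.54 (SE 0.20, adjusted p = 0.269, limma). Psmd5 had 4.03, 3.62 and 4.02 FPKM in young wild type, 4.15, 4.91 and 5.49 in old wild type and 4.13, 3.51 and 3.30 in P311-/-, at -0.40 (SE 0.14, adjusted p = 0.266, limma). The remaining chaperone, Psmd9, was at 2.96 FPKM in old wild type and 3.03 in P311-/- on average.

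Some cap genes stood well above old wild type in P311-/- replicates 2 and 3, while replicate 1 was below, within or barely above the old wild-type range. Psmd2, a scaffold that receives ubiquitin and ubiquitin-like domains at the base of the cap, was at 41.8, 48.6 and 41.9 FPKM in young wild type, 54.1, 57.3 and 51.5 in old wild type and 50.1, 84.2 and 80.0 in P311-/-. Replicate 1 of P311-/- lay below all old wild-type libraries, and replicates 2 and 3 lay far above them. For Psmd4, a ubiquitin receptor, replicate 1 fell within the old wild-type range and the other 2 lay above it, at 39.8, 45.7 and 46.5 FPKM in old wild type and 40.6, 66.5 and 59.9 in P311-/-. Psmd11, a lid subunit, had 12.1, 11.5 and 11.3 FPKM in young wild type, 13.4, 13.7 and 14 in old wild type and 14.1, 19.1 and 19.6 in P311-/-, so that replicate 1 was barely above old wild type. Its log2 fold change of P311-/- over old wild type was 0.34 (SE 0.14, adjusted p = 0.283, limma), and that of Psmd3, another lid subunit whose replicate 1 was also barely above old wild type, 0.39 (SE 0.16, adjusted p = 0.285, limma). Psmd2, Psmd3 and Psmd4 were singled out after their values were seen.

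P311-/- replicate 1 was the lowest of its group for 14 of 20 cap members and for 1 of 14 core members. Over all genes tested it was the lowest for 40.3%. In 13 of 14 core members the lowest P311-/- library was replicate 3, which held for 3919 of all 14233 genes tested. Without replicate 1, limma called 9 members: Psmd1, Psmd2, Psmd3, Psmd4 and Psmd11 higher, and Psma1, Psma2, Psmc6 and Psmd10 lower. The background was then 6.97% called higher and 6.2% lower, and the group rested on 2 libraries. Psmd2 had a log2 fold change of 0.60 (SE 0.11, adjusted p = 0.0149) in that fit, and Psmd10 -0.71 (SE 0.19, adjusted p = 0.0429, limma). In the same libraries the muscle fibre and macrophage marker sums moved as given above, and the sum of the 7 markers of fibro-adipogenic progenitors was 1203, 704.8 and 792.3 FPKM in P311-/- replicates 1 to 3. None of these 7 was at 0 in any library. Whether these markers account for any of the difference was not tested.

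**Figure D3:**
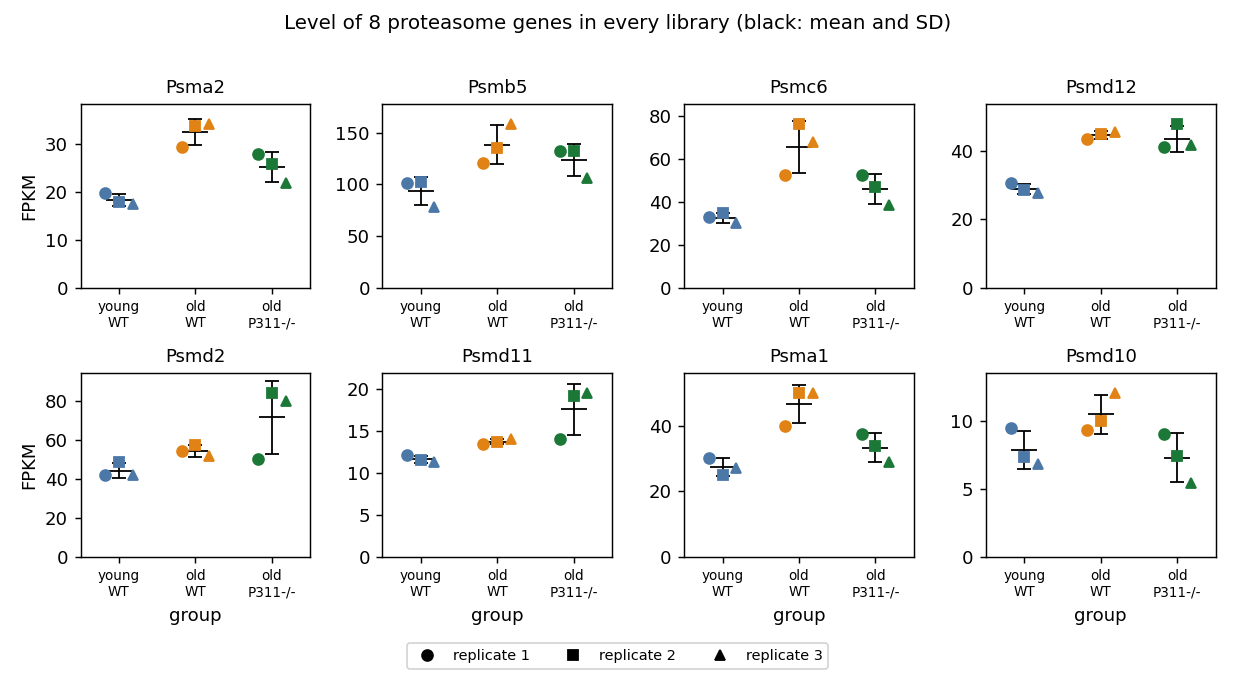
FPKM of 8 proteasome genes in each library (vertical axis from 0), by group, with the group mean and standard deviation in black. Psma2, Psmc6 and Psma1 are highest in old wild type, Psmd12 is alike in both old groups, and Psmd2 and Psmd11 reach 84.2 and 19.6 FPKM in P311-/- libraries other than replicate 1.

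Old P311-/- muscle was also set against young wild-type muscle, and no member was called in either direction. The median log2 fold change was 0.43 over the core and 0.47 over the cap, against 0.0141 over all genes tested. The difference between the core and cap medians was not tested. At the adjusted threshold (limma), 0.155% of all genes were called higher and 0.246% lower. At an unadjusted p under 0.05, 28 of 34 members were higher and 0 lower, with 10.9% of all genes higher and 10.6% lower. The 28 were 12 in the core and 16 in the cap. Under total-read scaling the same threshold gave 3 core and 10 cap members higher and 0 lower. In 26 of 34 members the groups did not overlap, all with P311-/- higher, against 11.6% of genes higher and 12% lower. Of the 34 fold changes 32 were above 0, and of those of all genes 51.6%. All 9 macrophage markers were below 0 in this comparison (median -0.83; 7 lower at an unadjusted p under 0.05, 5 without overlap), as were all 7 of fibro-adipogenic progenitors (median -0.63; 5 and 5). None of these 16 was called (limma). Of the 10 muscle fibre markers, 9 were above 0 (median 0.49) and 0 were called. The part of all these markers in the proteasome values was not tested. This comparison shares its young libraries with that of old wild type, and its P311-/- libraries with the previous one.

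The smallest adjusted p was that of Psmd12, 0.0549, at a log2 fold change of 0.59 (SE 0.11, limma). Next came Psmb7 at 0.54 (SE 0.12, adjusted p = 0.0805), Psmb1 at 0.50 (SE 0.12, adjusted p = 0.0865) and Psmd11 at 0.58 (SE 0.14, adjusted p = 0.0869, limma). Psmd6 had 0.46 (SE 0.12, adjusted p = 0.106) and Psma4 0.52 (SE 0.14, adjusted p = 0.111, limma). The assembly chaperones Psmd5 and Psmd10 were the exceptions in sign, at -0.10 and -0.13; under total-read scaling 3 cap members, and with library quality weights 1 core member, were below 0. Without P311-/- replicate 1, 20 members passed, 6 in the core and 14 in the cap, all higher, against a background of 10.3% higher and 9.22% lower.

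Averaged by class, some but not all classes differed in how the P311-/- libraries fell. Each gene was centred on its mean log2 level over the 9 libraries, and the centred values were averaged in each library. The outer ring was at -0.26, -0.38 and -0.41 in young wild type, 0.14, 0.42 and 0.46 in old wild type and 0.13, 0.07 and -0.16 in P311-/-. The catalytic subunits were at -0.25, -0.31 and -0.55 in young wild type, 0.08, 0.35 and 0.40 in old wild type and 0.16, 0.21 and -0.09 in P311-/-. In both classes P311-/- lay between the wild-type groups or within the old range. The base scaffold was at -0.34, -0.17 and -0.27 in young wild type, -0.07, 0.03 and -0.01 in old wild type and -0.14, 0.55 and 0.42 in P311-/-, so its P311-/- libraries spanned more than the wild-type groups together. Group means of old wild type and P311-/- were 0.16 and 0.15 in the ATPases and 0.11 and 0.18 in the lid. They were 0.21 and 0.13 in the inner ring without proteolytic sites, and 0.19 and -0.12 in the cap assembly chaperones. The average of the core minus that of the cap was -0.03, -0.14 and -0.11 in young wild type, 0.10, 0.22 and 0.20 in old wild type and 0.15, -0.16 and -0.22 in P311-/-. P311-/- replicate 1 was in this respect among the old wild-type libraries and the other 2 were below the young ones. These averages are descriptions and carry no test.

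**Figure D4:**
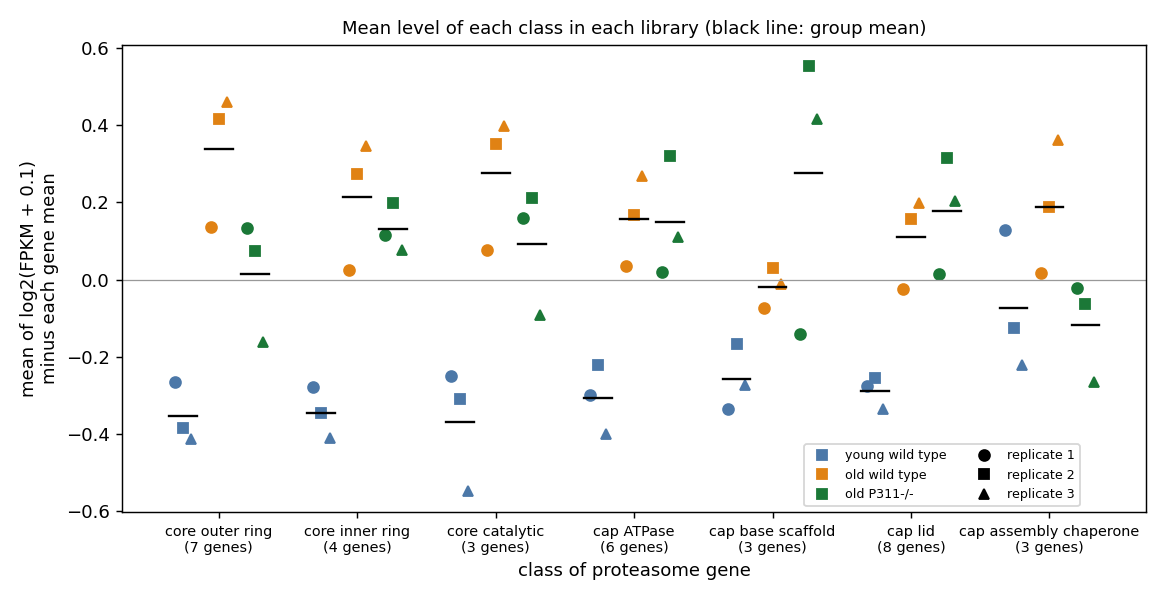
Mean centred log2 level of each class of proteasome gene (horizontal axis) in each library (points; colour for the group, shape for the replicate), with the group mean as a black line. The base scaffold stands at 0.55 and 0.42 in P311-/- replicates 2 and 3 and at -0.14 in replicate 1, while the core classes are highest in old wild type.

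Across the 9 libraries the core genes moved more tightly together than the cap genes. The median Pearson r of log2 levels was 0.91 over the 91 pairs within the core (0.44 to 0.98), 0.72 over the 190 pairs within the cap (-0.61 to 0.99) and 0.68 over the 280 pairs of a core and a cap gene. All these pairs share the same 9 libraries, with their depths and group differences, so r is given as a description. Within the 3 genes of the base scaffold class the median was 0.95, within the ATPases 0.84 and within the lid 0.78. Against the mean of the core, Psmc6 and Psmd14 had the highest r of the cap, 0.97 and 0.96. Psmd3 had the lowest, 0.19, followed by Psmd1 (0.32), Psmd9 (0.33) and Psmd2 (0.39). Psmd10 and Psmd5 were least like the other cap genes, at 0.10 and 0.13.

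The fold changes of the members went with the GC content of their transcripts. For old over young wild type, Spearman's rho between log2 fold change and GC content was -0.51 over the 34 members, -0.60 over the 20 cap members and -0.36 over 14219 genes tested. For P311-/- over old wild type it was 0.63, 0.72 and 0.39 in the same order. For P311-/- over young wild type it was 0.14 over the 34 members and -0.04 over all genes. Both comparisons with a relation use the old wild-type libraries. Psmc6, with 42.1% GC, and Psmd3, with 56.2%, lay near the ends in both comparisons. The median GC content was 47.3% in the core, 50.4% in the cap and 50.6% over all genes tested, and the median gene length was 2335 bases in the core, 2938.5 in the cap and 3837 over all genes tested.

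After the trends with GC content and length were removed within each library, the old over young medians were 0.56 in the core and 0.38 in the cap. In that fit, added after the data were seen, 13 core and 14 cap members were higher at an unadjusted p under 0.05 but 0 passed the adjusted threshold, where 0.155% of all genes were called higher. For P311-/- over old wild type, the core median became -0.15. Psmd3 moved from 0.39 to 0.17, Psmc6 from -0.51 to -0.28 and Psma2 from -0.36 to -0.12, while Psmd2 moved from 0.36 to 0.30. Psmd5 went further from 0, from -0.40 to -0.47, and Psmd14 changed sign, from -0.17 to 0.14. For old over young wild type, Psmd14 moved from 0.65 to 0.28, Psmd10 from 0.41 to 0.06 and Psmc6 from 0.999 to 0.76. Genes named for these moves were singled out after their values were seen.

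**Figure D5:**
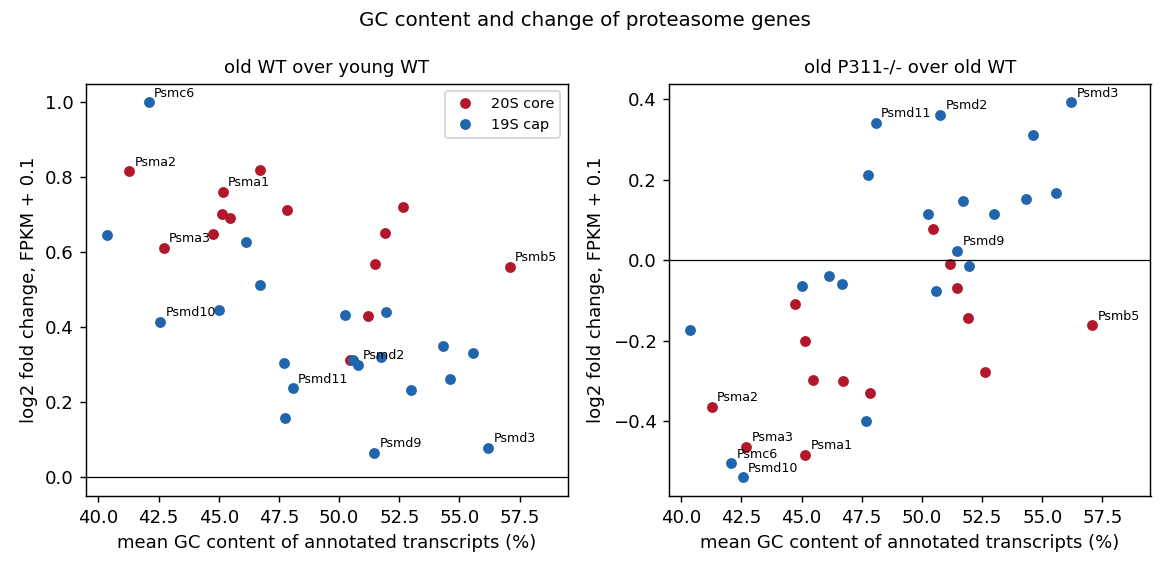
Log2 fold change (vertical axis) against the mean GC content of the annotated transcripts in percent (horizontal axis) for the 34 tested proteasome genes, red for core and blue for cap. Fold changes tend to be lower at higher GC content for old over young wild type (rho -0.51) and higher for P311-/- over old wild type (rho 0.63). Psmd14, lowest in GC content at 40.4%, is at 0.65 and -0.17. An exception is Psmb5, highest in GC content at 57.1% but at 0.56 and -0.16.

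Other genes of the pathway were read from lists of fixed members. Of 5 chaperones that assemble the core, Pomp, which completes the maturation of the beta rings, was higher in old than in young wild type, and the other 4 did not pass. Pomp had 15.7, 13.8 and 14.8 FPKM in young wild type, 19.1, 21.8 and 23.3 in old wild type and 17.7, 19.4 and 15.3 in P311-/-, a log2 fold change of 0.53 (SE 0.13, adjusted p = 0.0480, limma) for old over young. Of 15 activators, inhibitors and bound proteins 1 passed, Sem1, a small lid subunit whose symbol the rule does not take. It had 11.9, 13.7 and 13.1 FPKM in young wild type, 20.1, 23.7 and 22.9 in old wild type and 17.0, 15.6 and 12.5 in P311-/-. The old wild-type libraries were above all others, with a log2 fold change of 0.78 (SE 0.14, adjusted p = 0.0307) over young and of -0.57 (SE 0.14, adjusted p = 0.242, limma) for P311-/- over old.

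Of 6 ubiquitin and ubiquitin-activating genes 1 passed for old over young wild type, Rps27a, which encodes ubiquitin fused to a ribosomal protein. It was at 59.9, 41.6 and 36.5 FPKM in young wild type, 176.9, 141.9 and 187.5 in old wild type and 175.9, 115.7 and 47.7 in P311-/-, with P311-/- spread over most of that range. Its log2 fold change of old over young was 1.90 (SE 0.40, adjusted p = 0.0365, limma). Of 8 muscle ubiquitin ligases 1 passed, Fbxo30, at 0.71 (SE 0.17, adjusted p = 0.0486, limma). The atrophy ligases Trim63 and Fbxo32 did not pass, at 0.30 and 0.15 (adjusted p of 0.543 and 0.850, limma). In P311-/- replicates 1 to 3 Fbxo32 stood at 17.0, 56.7 and 61.1 FPKM against 26.7, 23.8 and 20.5 in old wild type, so that, as for Psmd2, replicate 1 was below and the other 2 above. These 2 ligases were singled out after their values were seen.

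None of 10 regulators of proteasome genes passed in any comparison (limma). Nfe2l1, which encodes the factor that raises proteasome genes when the proteasome is inhibited, had 84.4, 103.1 and 84.8 FPKM in young wild type, 93.1, 87.9 and 68.4 in old wild type and 89.3, 159.1 and 180.7 in P311-/-. Replicate 1 of P311-/- was within the old wild-type range and the other 2 were far above it. Its log2 fold change of P311-/- over old wild type was 0.73 (SE 0.25, adjusted p = 0.260, limma). Foxo3, a factor known to raise atrophy genes, had 0.57 (SE 0.18, adjusted p = 0.254, limma) in that comparison. None of 13 ubiquitin shuttles and p97 partners passed, nor did any of 7 targets of NFE2L2 outside the proteasome; for old over young wild type the smallest adjusted p in these lists were those of Faf2 and G6pdx (0.0897 and 0.105, limma).

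Other large complexes were set beside the proteasome for old over young wild type. The CCT chaperonin, which folds actin and tubulin, had 0 of 7 genes called and a median log2 fold change of 0.28, all 7 above 0. The COP9 signalosome, a relative of the lid, had 3 of 10 called (Cops2, Cops3 and Cops5) and a median of 0.31, with 9 of 10 above 0. Those medians were below the 0.67 of the core and near the 0.33 of the cap; the difference between complexes was not tested.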

How the data were processed

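RNA of 9 libraries, 3 per group, was analysed from 1 table. The authors deposited FPKM (fragments per kilobase of gene, scaled to a library size that differs from the recovered reads) for 54532 genes, with gene lengths in bases. Per the submitters' processing notes the tools were HISAT2 2.2.1, featureCounts 2.1.1 and DESeq2 1.42.0 with build mm39. Their options were not given in the sources used here. Positions in the table are those of GRCm38: 98.33% of the identifiers shared with GENCODE M21, and 35 of the 36 members, had the same position there. FPKM multiplied by gene length and rescaled by a single factor in each library came out whole within 0.001 for 100% of values, hence the 14222204 to 31910890 reads per library; these served for depth, the filter and the fits with voom.

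Tested were the 14233 genes with 0.5 FPKM or more in 3 or more libraries and with 10 or more recovered reads in 3 or more libraries. limma 3.58.1 in R 4.3.3 was fitted to log2(FPKM + 0.1) with all 9 libraries, group means, a mean-variance trend and robust moderation, without a block, and p-values were adjusted over all genes tested (Benjamini-Hochberg). Fold changes on this scale understate those of low genes. The script was tested on simulated data. The members and lists were chosen with earlier results of these data known. Named were the 3 catalytic subunits, the members that passed (the 4 with the smallest p in core and cap where over 8 did), otherwise the 3 with the smallest p in each, the highest and lowest member of each, and in other lists the genes that passed, or else those with the smallest p. GC content is the mean over GENCODE M21 transcripts. Alternatives changed the pseudocount, filter, scaling, model, block and libraries. Counts per library limit precision, and reads without molecular identifiers are not independent molecules. Protein sequences were not used here.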

Additional observations from a re-analysis of the deposited data

How the results depend on the processing

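For old over young wild type, 768 genes and 14 members passed. The counts were 5 and 0 without the filter on low values, 346 and 0 with total-read scaling, 31 and 0 with GC content and length trends removed, 3001 and 23 with voom and library quality weights, and 1653 genes in a fit of the 6 libraries compared. With only the length trend removed 9 members passed. The share of all genes called in that fit is not given here, so this count has no background. Leaving out 1 library gave 0 to 1755 genes and 0 to 19 members. The cap median was 0.19 with total-read scaling. For P311-/- over old wild type, 10 genes and 0 members passed, against 4211 and 15 with quality weights and 6 genes in the fit of 6 libraries; leaving out 1 library gave 4 to 1875 genes and 0 to 9 members, and the 1875 and 9 were without P311-/- replicate 1. The cap median ranged from -0.01 to 0.16 in those fits. For P311-/- over young wild type, 57 genes and 0 members passed. The counts were 87 genes with a pseudocount of 1, 23 without the filter, 34 with total-read scaling, 12 in the fit of 6 libraries, 139 genes and 1 member with voom, and 4422 and 24 with quality weights; leaving out 1 library gave 4 to 2785 genes and 0 to 20 members. Core and cap medians were 0.29 and 0.33 with total-read scaling. The cause of these changes was not tested, except that fewer libraries or other genes enter by construction. With the replicate number as a block, 0 genes and 0 members passed for old over young wild type, 4 genes and 0 members for P311-/- over old wild type, and 5 genes and 0 members for P311-/- over young. Same-numbered libraries deviated together with r of -0.10 to 0.15, and differently numbered ones with r of -0.16 to 0.21. Deviations from means of 3 libraries cannot settle whether the same number stands for a shared batch. Of the values of single members, 138 lost the threshold for old over young wild type and 20 gained it; 24 gained it for P311-/- over old and 45 for P311-/- over young. No called value changed sign, but no member was called in either P311-/- comparison to begin with. Among values not called, 3 changed sign for old over young wild type. The numbers were 21 for P311-/- over old and 5 for P311-/- over young. Each tested member had 181 reads or more in every library; counting error was not compared with the spread between libraries.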
